A study of Mus musculus with 20 samples.

Results

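The 10 genes described here encode receptors for mediators that are released or formed in damaged and inflamed tissue: the protease-activated receptors F2r, F2rl1, F2rl2 and F2rl3, the bradykinin receptors Bdkrb1 and Bdkrb2, and the prostaglandin E2 receptors Ptger1, Ptger2, Ptger3 and Ptger4. All 10 were found by symbol among 78258 gene identifiers of a count table from mouse dorsal root ganglia. The set was selected on receptor family around F2rl2, which had been noticed because its measured counts differed between genotypes in these libraries. F2rl2 values are therefore given as a description, with no test of a group difference, and support no other result.

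Dorsal root ganglia hold the cell bodies of the sensory neurons that innervate skin, muscle and viscera, surrounded by satellite glia, Schwann cells, vessels and immune cells. The study compared 10 male mice after tamoxifen (100 mg/kg intraperitoneally, daily for 5 days from 17 weeks of age). The 5 conditional knockout (cKO) mice were Ahr fl/fl with a tamoxifen-inducible Cre and EYFP under the Thy1 promoter (Thy1CRE-ERT2/EYFP), and the 5 control mice were Ahr f/f or f/+, with no Cre named in their labels. Ahr encodes the aryl hydrocarbon receptor, a ligand-activated transcription factor. A sciatic nerve was cut 4 weeks after tamoxifen, and the L4 to L6 ganglia of both sides were taken 1 day later, so that each mouse gave an ipsilateral (injured) and a contralateral (uninjured) library and each of the 4 groups holds 5 libraries. One label calls the treatment a spinal cord injury, whereas the protocol describes the cut nerve; the protocol is followed here. For the control mice the sources differ: the protocol gives f/f or f/+, the library names and genotype labels of all 5 mice read ff, and the titles call them wildtype. Cre, EYFP and the loss of Ahr occur in the same mice and cannot be told apart, the Thy1 promoter is active in neurons, and the contralateral ganglia come from operated animals.

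Libraries held 76.2 to 118.5 M counts, with group means (in M, SD, n = 5) of 95.3 ± 14.55 for control contralateral, 87.6 ± 9.18 for control ipsilateral, 82.9 ± 4.94 for cKO contralateral and 103.5 ± 12.87 for cKO ipsilateral ganglia. Levels are counts-per-million values (CPM), scaled with TMM factors. Ahr, the targeted gene, was at 24.2 ± 2.10 CPM in control and 20.4 ± 0.536 CPM in cKO contralateral ganglia (SD, n = 5), a log2 difference of -0.25 that did not pass the test (adjusted p = 0.103, edgeR quasi-likelihood test). With DESeq2 the same difference had an adjusted p of 0.0216, and without mouse H99 it had one of 0.0353 in edgeR. The contralateral ranges did not overlap (21.3 to 27.2 CPM in control and 19.5 to 21.0 CPM in cKO libraries), as for 1.52% of all genes. Counts per gene in whole ganglia cannot show how much Ahr was lost in neurons. On the ipsilateral side Ahr was at 34.4 ± 2.86 and 31.9 ± 2.94 CPM (log2 difference -0.11, adjusted p = 1.0). Thy1, whose promoter drives the transgene, was at 602.3 to 679.1 CPM in the control and 1018.1 to 1176.4 CPM in the cKO contralateral libraries. All 10 sensory neuron markers (among them Prph, Scn10a and Tubb3) were detected in every group, with a mean score of 9.14 on the log2 CPM scale in control contralateral ganglia.

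Protease-activated receptors are G protein-coupled receptors that carry their own ligand: a protease cuts the N-terminus and the new end activates the receptor. F2r (PAR1) and F2rl3 (PAR4) are best known as thrombin receptors, F2rl1 (PAR2) as the receptor for trypsin-like and mast cell proteases, and F2rl2 (PAR3) in mice mainly as a cofactor that presents thrombin to PAR4. Bradykinin receptor B2 (Bdkrb2) is regarded as the constitutive kinin receptor and B1 (Bdkrb1) as the inducible one; both are known for sensitizing nociceptors. Prostaglandin E2 acts on EP1 to EP4 (Ptger1 to Ptger4), of which EP3 couples mainly to inhibitory G proteins and EP2 and EP4 raise cyclic AMP.

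Promoters of the 3 receptors with the clearest injury responses for which a sequence was at hand (Bdkrb2, F2r and Ptger3) are shown because their levels differed between the 2 sides in different directions. That of F2rl2 is added because F2rl2 prompted the set. Each line gives the RefSeq promoter on build GRCm38.p6, 250 bases before to 50 after the annotated start, 5′ to 3′ along the gene. Capitals mark matches on either strand to the AP-1 motif TGANTCA, the cyclic AMP response element TGACGTCA or GCGTG, the core of the element bound by the aryl hydrocarbon receptor. A GCGTG on the opposite strand reads CACGC in these lines. These 3 motifs do not contain one another.
Bdkrb2: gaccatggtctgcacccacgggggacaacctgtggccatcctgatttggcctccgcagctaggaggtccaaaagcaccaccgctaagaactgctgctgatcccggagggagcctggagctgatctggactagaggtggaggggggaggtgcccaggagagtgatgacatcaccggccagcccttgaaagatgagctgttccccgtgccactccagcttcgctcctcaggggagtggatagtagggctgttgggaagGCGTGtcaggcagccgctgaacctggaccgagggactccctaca
F2r: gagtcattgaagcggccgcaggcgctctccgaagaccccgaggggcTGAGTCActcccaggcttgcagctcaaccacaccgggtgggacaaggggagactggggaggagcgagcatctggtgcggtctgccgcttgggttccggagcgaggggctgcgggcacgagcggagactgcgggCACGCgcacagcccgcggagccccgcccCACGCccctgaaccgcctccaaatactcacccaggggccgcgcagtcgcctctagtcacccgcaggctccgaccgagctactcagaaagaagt
Ptger3: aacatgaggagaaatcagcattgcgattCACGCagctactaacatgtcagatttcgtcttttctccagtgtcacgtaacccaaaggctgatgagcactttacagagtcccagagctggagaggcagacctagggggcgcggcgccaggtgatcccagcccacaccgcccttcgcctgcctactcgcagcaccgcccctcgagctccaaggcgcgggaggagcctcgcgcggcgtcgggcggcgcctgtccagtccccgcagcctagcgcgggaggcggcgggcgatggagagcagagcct
F2rl2: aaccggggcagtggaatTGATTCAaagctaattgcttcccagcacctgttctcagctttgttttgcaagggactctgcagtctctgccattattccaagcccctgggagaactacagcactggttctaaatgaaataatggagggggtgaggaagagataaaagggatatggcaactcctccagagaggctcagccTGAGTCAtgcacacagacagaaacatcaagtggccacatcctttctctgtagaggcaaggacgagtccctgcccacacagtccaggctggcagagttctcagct

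The Bdkrb2 promoter (chr12:105562922-105563221, plus strand) held 1 match, a GCGTG at base 7 after the start. The F2r promoter (chr13:95618417-95618716, minus strand) held TGAGTCA 204 bases before the start and GCGTG on the opposite strand at 71 and 43 bases before it. In the Ptger3 promoter (chr3:157566626-157566925, plus strand) a single GCGTG lay on the opposite strand 222 bases before the start. F2rl2 (chr13:95696670-95696969, plus strand) had AP-1 matches at 233 (TGATTCA) and 54 (TGAGTCA) bases before its start. Of 32851 promoters of the same length, 7.81% held the AP-1 motif, 1.79% the cyclic AMP response element and 32.4% GCGTG. The AP-1 letters thus occur in the promoters of F2r and F2rl2 and not in the windows of Bdkrb2 and Ptger3. Bdkrb2 rose and Ptger3 fell on the injured side of control mice, and a link between motif and response was not tested. These are letter matches and not measured binding sites. Promoters were at hand for 7 of the 10 receptors, and those of F2rl3, Ptger2 and Ptger4 held none of the 3 motifs.

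One day after nerve transection the receptors responded in different directions. Bdkrb2 rose 3.08-fold in control and 3.21-fold in cKO ganglia. F2r and Ptger1 fell by 19.0% and 16.4% in control mice, and both also fell in cKO mice. Ptger3 fell by 18.7% in control mice, and F2rl1, a low transcript, rose in cKO mice. Of the 8 receptors that could be tested apart from F2rl2, 1 rose, 3 fell and 4 did not pass the test in control mice; 2 rose, 2 fell and 4 did not pass in cKO mice. Among all 28564 genes tested, 13.8% were called higher and 16.0% lower on the injured side in control mice, and 16.2% and 15.1% in cKO mice. The receptors' counts of 1 to 3 of 8 were not tested against these shares. Calls are adjusted p-values under 0.05 by edgeR's quasi-likelihood test with Benjamini-Hochberg adjustment over all genes tested. The median log2 fold change of the 8 was -0.15 in control and -0.08 in cKO mice, beside medians of 0.00 and -0.03 over all genes. These are whole ganglia: fewer cells of a type and less RNA per cell cannot be told apart.

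**Figure D1:**
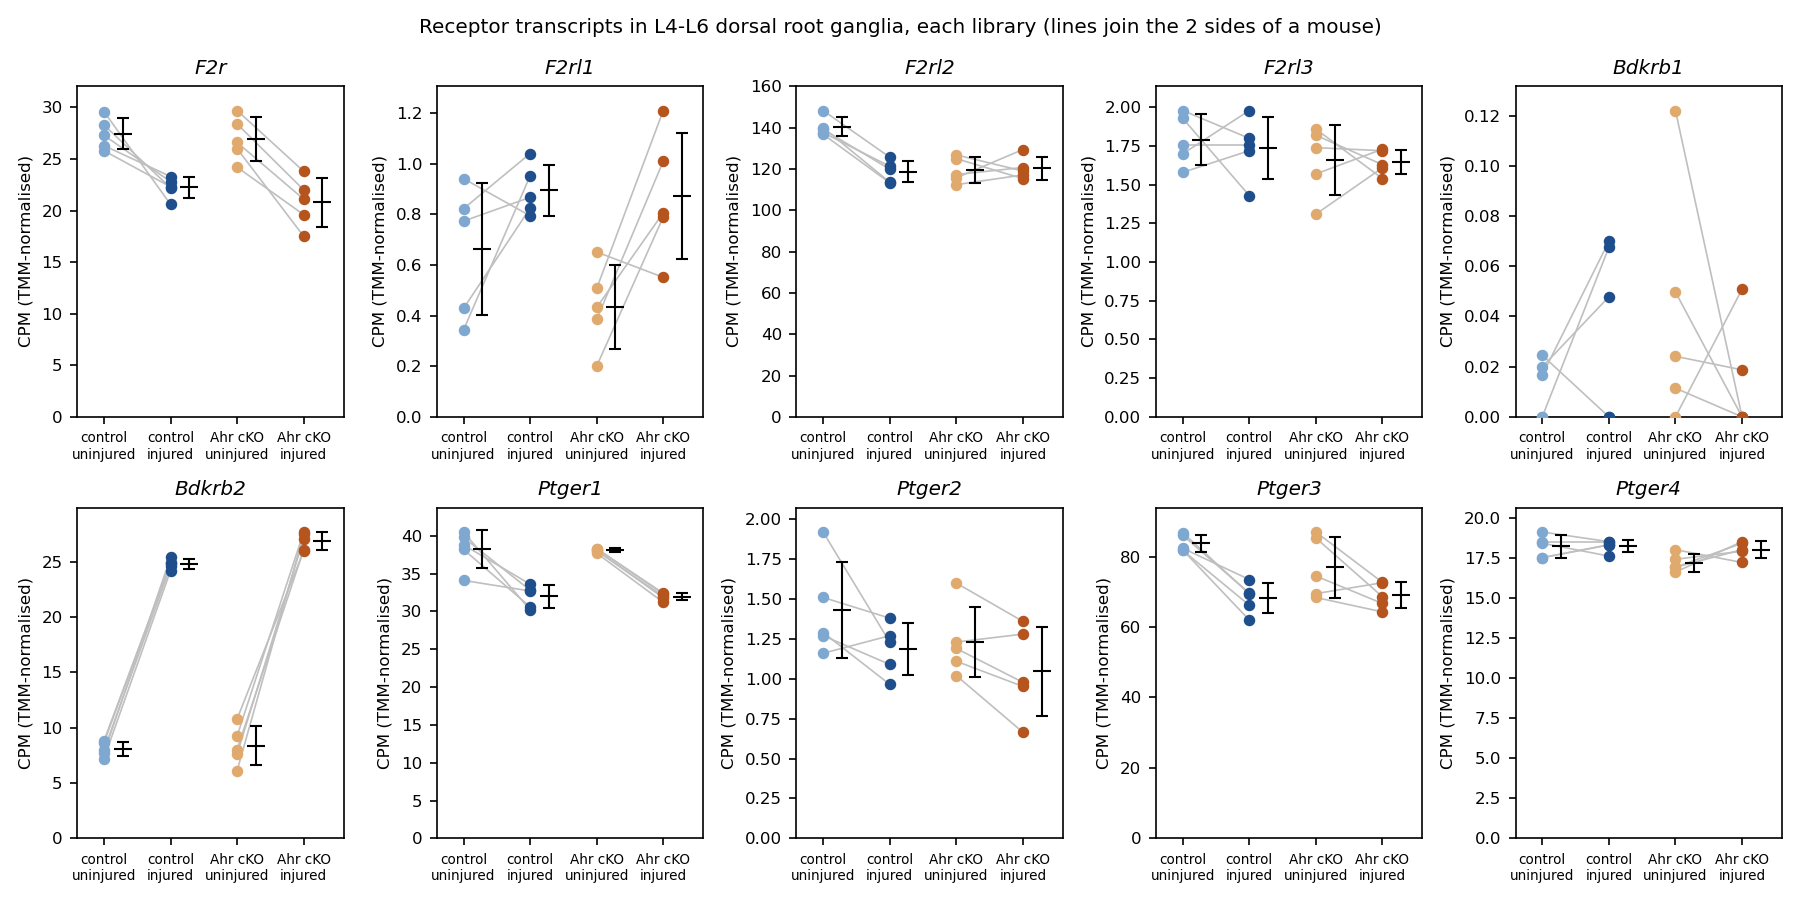
CPM of each receptor (vertical axes, TMM-normalised, starting at 0) in the 4 groups; points are libraries, grey lines join the 2 sides of a mouse, and black bars give the mean and SD over 5 libraries, left out for Bdkrb1, which is close to 0. Bdkrb2 rises in all 10 mice, F2r and Ptger1 fall in all 10, and the 5 control contralateral libraries of F2rl2 lie above the other 15.

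Bdkrb2, the B2 bradykinin receptor, had the largest change among the receptors that passed the test. In contralateral control ganglia it was at 7.21, 7.70, 7.96, 8.81 and 8.64 CPM in mice H62, H63, H65, H96 and H97. The same mice had 24.2, 25.4, 24.6, 24.9 and 24.9 CPM on the injured side. The 2 sides do not overlap, and the injured libraries sit within a narrow band (8.07 ± 0.664 against 24.8 ± 0.434 CPM, SD, n = 5). The log2 fold change was 1.62 (SE 0.0977, adjusted p = 8.08e-11, edgeR), and the fold change per mouse ran from 2.83 to 3.36.

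In cKO mice H61, H64, H95, H99 and H100, Bdkrb2 was at 7.63, 6.12, 9.25, 8.03 and 10.8 CPM contralaterally and at 27.1, 27.5, 27.7, 26.1 and 26.0 CPM ipsilaterally. Every cKO mouse was higher on the injured side, by 2.41-fold to 4.49-fold (log2 fold change 1.68, SE 0.0979, adjusted p = 3.65e-11, edgeR). The widest spread was on the uninjured side, where mouse H64 was lowest and H100 highest. On the injured side all 5 cKO libraries (26.0 to 27.7 CPM) lay above all 5 control libraries (24.2 to 25.4 CPM). That difference was 0.12 on the log2 scale (SE 0.0944) and did not pass the test (adjusted p = 1.0, edgeR); 0.599% of all genes had non-overlapping ranges in this comparison. On the uninjured side the genotypes overlapped (log2 difference 0.05, adjusted p = 0.834), and the injury response differed between genotypes by 0.06 (SE 0.135, adjusted p = 0.901).

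Bdkrb1, the B1 receptor, stayed near the detection limit. Its 20 libraries held 0 to 11 counts each, 8 of them none, and only 6 held more than the 3 counts used as a floor, which correspond to 0.0249 to 0.0386 CPM. Summed over 5 libraries it had 6 counts in control contralateral, 17 in control ipsilateral, 18 in cKO contralateral and 8 in cKO ipsilateral ganglia. In cKO contralateral ganglia 11 of the 18 counts came from mouse H95. Bdkrb1 was too low to be tested, and no change with injury or genotype was detectable at this depth. Counting intervals and floors cover counting error only.

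The genes whose levels followed Bdkrb2 most closely over the 20 libraries, among 14396 with a symbol and a mean of at least 1 CPM, were Adcyap1 (Pearson r 0.993 on log2 CPM), Sytl3 (0.989), Chmp1b (0.989), Tes (0.987) and Gpr151 (0.987). Adcyap1 encodes the neuropeptide PACAP and was at 117.8 CPM contralaterally and 402.0 CPM ipsilaterally in control mice. Gpr151, an orphan receptor, went from 1.93 to 30.5 CPM in the same mice. These r values describe libraries that share mice, depth and the injured side, and no p-value is attached to them. The genes were picked for this likeness, so their group means repeat the Bdkrb2 pattern by choice.

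F2r, the PAR1 thrombin receptor, fell on the injured side in all 10 mice. Control mice H62, H63, H65, H96 and H97 had 28.3, 27.3, 29.6, 26.3 and 25.8 CPM contralaterally and 22.2, 22.8, 20.6, 23.3 and 22.3 CPM ipsilaterally. No injured library reached the lowest uninjured one, and the log2 fold change was -0.30 (SE 0.0684, adjusted p = 0.00164, edgeR). Among cKO mice, H61, H64, H95, H99 and H100 had 26.6, 26.0, 24.2, 29.7 and 28.4 CPM contralaterally and 21.1, 17.5, 19.6, 23.8 and 22.0 CPM ipsilaterally. Here too the ranges do not overlap, mouse H64 being lowest after injury (log2 fold change -0.38, SE 0.0684, adjusted p = 0.000216, edgeR). Between genotypes F2r overlapped on both sides, with log2 differences of -0.03 (SE 0.0682, adjusted p = 0.895) and -0.10 (SE 0.0684, adjusted p = 1.0).

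F2rl1, the PAR2 receptor, was low, with 18 to 143 counts per library. Contralateral cKO libraries H61, H64, H95, H99 and H100 had 0.432, 0.507, 0.200, 0.651 and 0.385 CPM, and the ipsilateral ones 0.806, 1.21, 0.790, 0.551 and 1.01 CPM. Mice H61, H64, H95 and H100 were higher and H99 lower on the injured side, so the ranges overlap. The log2 fold change of 1.01 (SE 0.282) passed the test (adjusted p = 0.00901, edgeR). In control mice the contralateral libraries ran from 0.343 to 0.941 CPM and the ipsilateral ones from 0.794 to 1.04 CPM; 4 of 5 mice were higher after injury, and the log2 fold change of 0.43 (SE 0.273) did not pass (adjusted p = 0.266). The difference between the 2 injury responses was 0.58 (SE 0.392, adjusted p = 0.621), so the responses were not shown to differ. On the log2(FPKM + 1) scale, which compresses low genes, the cKO fold change was 0.04 and remained past the threshold.

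F2rl3, the PAR4 receptor, lay between 1.31 and 1.98 CPM in all 20 libraries. Group means were 1.79 ± 0.166 and 1.74 ± 0.199 CPM on the contralateral and ipsilateral sides of control mice, and 1.66 ± 0.226 and 1.65 ± 0.0809 CPM in cKO mice (SD, n = 5). All 4 ranges overlap, and neither the injury log2 fold changes of -0.04 (SE 0.0994) and -0.01 (SE 0.0997) nor any genotype difference passed the test.

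F2rl2, the PAR3 receptor, was the most abundant of the 10 per length and is the gene that prompted the set. Its contralateral control libraries H62, H63, H65, H96 and H97 had 148.3, 136.8, 137.6, 139.2 and 140.0 CPM. The same mice had 125.7, 113.3, 121.3, 119.9 and 113.6 CPM on the injured side. Contralateral cKO libraries H61, H64, H95, H99 and H100 had 125.0, 112.4, 117.3, 126.8 and 115.7 CPM, and their ipsilateral partners 115.3, 117.1, 120.7, 119 and 129.4 CPM. All 5 uninjured control libraries lie above the other 15, and the 3 other groups share 1 range from 112.4 to 129.4 CPM. H62 stands apart at the top of its group.

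The uninjured cKO mean differed from the uninjured control mean by -14.9% (119.5 ± 6.16 against 140.4 ± 4.62 CPM, SD, n = 5; log2 difference -0.23, SE 0.0392). The ranges do not overlap. Of all genes, 1.52% have this property in the comparison, but F2rl2 was noticed in these same libraries, so nothing is read from that share. On the injured side the difference was 1.29% (120.3 ± 5.45 against 118.8 ± 5.31 CPM; log2 difference 0.02, SE 0.0392). In control mice the injured side was lower in 5 of 5 mice, at 0.812 to 0.882 of the other side (log2 fold change -0.24, SE 0.0392). In cKO mice it was higher in 3 and lower in 2, at 0.923 to 1.12 (log2 fold change 0.01, SE 0.0392). The injury comparisons use the same uninjured libraries in which the genotype difference was noticed, so they too are given without a test. F2rl2 lies inside Iqgap2 on the opposite strand with 0 shared exon bases, and Iqgap2 had group means of 13.7 to 16.1 CPM.

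The score of the pruriceptive markers Nppb, Sst, Il31ra and Osmr (mean log2 CPM) was 4.08 in uninjured cKO ganglia (3.68 to 4.28) and 4.43 in uninjured control ganglia (4.34 to 4.5), with no overlap. This difference of -0.35 had an exact two-sided permutation p of 0.00794, the smallest that 5 against 5 libraries allow, and an adjusted p of 0.135 over the 68 scores compared. After injury the score was 4.41 in both genotypes (4.30 to 4.5 in control and 4.32 to 4.46 in cKO libraries). In control mice the score differed by -0.02 between the sides (exact permutation p = 0.69, adjusted p = 0.954), a mean over markers that went opposite ways: edgeR called Nppb higher (log2 fold change 0.29, adjusted p = 0.0407) and Sst lower (-0.61, adjusted p = 0.0147). In cKO mice the injured side was higher by 0.33 with no overlap (exact permutation p = 0.00794, adjusted p = 0.135), and edgeR called 3 of the 4 markers higher and none lower. Sst went the other way there (log2 fold change -0.41, adjusted p = 0.0986, edgeR). Of all genes, 16.2% were called higher in cKO mice. None of the 4 markers was called between genotypes on the uninjured side by edgeR, where Il31ra had a log2 difference of -0.52 (adjusted p = 0.0742) and Sst one of -0.15 (adjusted p = 0.713), and all 4 were detected. Their part in the F2rl2 values was not tested.

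The genes most like F2rl2 over the 20 libraries were Tmem131l (Pearson r 0.909), Cd47 (0.901), St6galnac5 (0.893), Mmp17 (0.893) and Camk2a (0.892). Camk2a, a calcium/calmodulin-dependent kinase subunit, had 254.8 CPM in uninjured control ganglia and 212.2, 219.4 and 214.1 CPM in injured control, uninjured cKO and injured cKO ganglia. Tmem131l had 52.4 CPM in the first of these groups and 41.0, 41.7 and 41.5 CPM in the others. Among the other receptors, Ptger3 was nearest (r 0.741, rank 393 of the 14396 genes). As above, r describes libraries that share mice and depth. The 5 genes were picked for following F2rl2 in these same libraries, so their group means repeat its pattern by choice and support no other result.

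Ptger3, the EP3 receptor, was the second most abundant of the set per length. Control mice H62, H63, H65, H96 and H97 had 86.8, 81.8, 82.4, 81.9 and 86.1 CPM contralaterally and 69.5, 66.2, 73.5, 62 and 69.6 CPM ipsilaterally. All 5 were lower on the injured side without overlap (log2 fold change -0.30, SE 0.0607, adjusted p = 0.000685, edgeR). Among cKO mice, H61, H64, H95, H99 and H100 had 85.3, 68.4, 69.5, 87.0 and 74.5 CPM contralaterally and 68.6, 64.3, 72.6, 72.7 and 66.7 CPM ipsilaterally. Uninjured cKO libraries were spread over the span of both control groups, and H95 alone was higher on the injured side. The cKO log2 fold change of -0.16 (SE 0.0606) just missed the threshold (adjusted p = 0.0544, edgeR). With the mouse as a replicate block it was -0.15 and passed (adjusted p = 0.0279); without H64 or without H95 it passed as well (-0.17, adjusted p = 0.0465, and -0.21, adjusted p = 0.0209). The injury responses of the genotypes differed by 0.14 (SE 0.0857, adjusted p = 0.584), and the uninjured groups by -0.12 (SE 0.0606, adjusted p = 0.297).

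Ptger1, the EP1 receptor, fell on the injured side in all 10 mice. Control mice H62, H63, H65, H96 and H97 had 34.1, 38.2, 38.8, 40.5 and 39.8 CPM contralaterally and 32.7, 30.6, 33.6, 30.2 and 32.8 CPM ipsilaterally (log2 fold change -0.26, SE 0.0389, adjusted p = 2.7e-05, edgeR). H62 had the lowest uninjured value, still above every injured one. The cKO libraries were closer together, at 37.7 to 38.3 CPM contralaterally and 31.2 to 32.4 CPM ipsilaterally (log2 fold change -0.25, SE 0.0389, adjusted p = 3.15e-05, edgeR). The library kit marks strand, but whether the counting used it is not given in the sources used here. Where exons of a receptor overlap a gene on the opposite strand, as they do for Ptger1, Ptger2 and Ptger4, reads of the shared bases may belong to either gene, so the Ptger1 values are uncertain to that extent.

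Ptger2, the EP2 receptor, was at 1.43 ± 0.30 and 1.19 ± 0.163 CPM on the contralateral and ipsilateral sides of control mice, and at 1.23 ± 0.220 and 1.05 ± 0.281 CPM in cKO mice (SD, n = 5). In each genotype 4 of 5 mice were lower after injury, with overlapping ranges, and the log2 fold changes of -0.27 (SE 0.176, adjusted p = 0.281) and -0.23 (SE 0.177, adjusted p = 0.358) did not pass. Gm17173 and Gm49364 on the other strand share 246 and 144 exon bases with it, and Gm17173 was itself called lower after injury in both genotypes (log2 fold changes -0.47 and -0.44, adjusted p = 0.0319 and 0.0471).

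Ptger4, the EP4 receptor, had nearly the same mean on both sides of control mice (18.2 ± 0.714 and 18.3 ± 0.354 CPM, SD, n = 5; log2 fold change 0.00, SE 0.0347, adjusted p = 0.952, edgeR). In cKO mice it was at 17.2 ± 0.560 and 18.0 ± 0.507 CPM, with H61 alone lower after injury. That fold change of 0.07 (SE 0.0347) did not pass the test (adjusted p = 0.144), although without H61 it was 0.10 and passed (adjusted p = 0.0436). Ttc33 and the pseudogene Gm15937 share 82 and 1015 exon bases with Ptger4 on the other strand; Gm15937 had 0 to 4 counts per library.

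**Figure D2:**
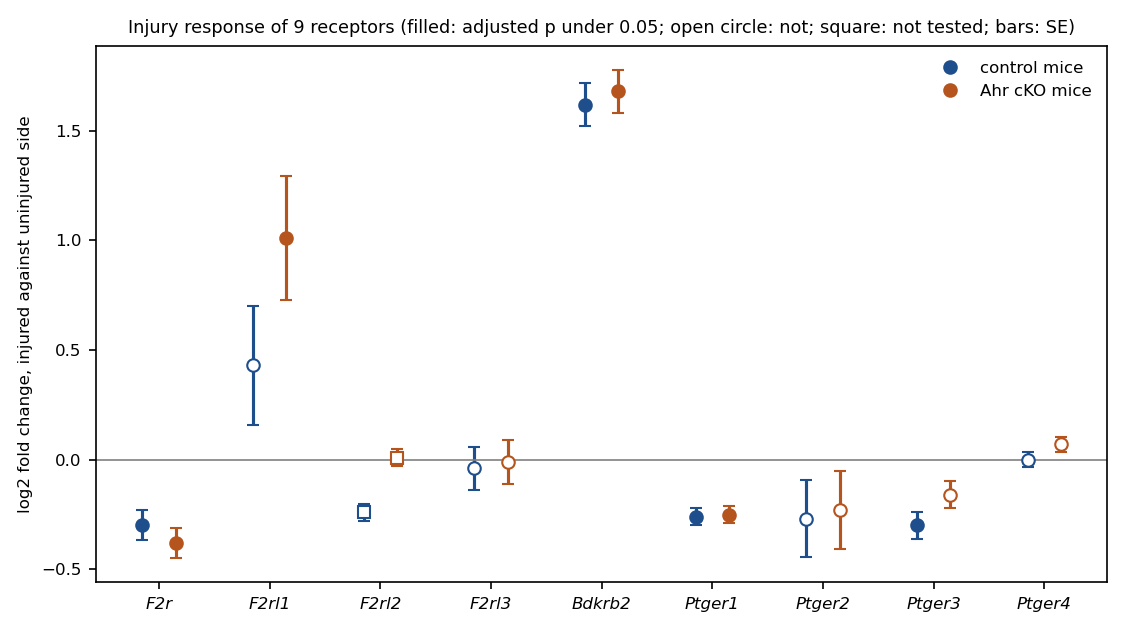
Log2 fold change of the injured against the uninjured side (vertical axis) for the 9 receptors that passed the filter, in control (blue) and cKO (orange) mice, with SE bars. Filled circles passed the test, open circles did not, and the squares for F2rl2 were not tested; Bdkrb2 stands at 1.62 and 1.68, and F2rl1 at 0.43 and 1.01.

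The falls of F2r, Ptger1 and Ptger3 stood beside a small shift of neuronal markers. The sensory neuron score was 9.07 to 9.21 on the uninjured and 8.95 to 9.05 on the injured side of control mice, a difference of -0.12 (exact two-sided permutation p = 0.00794, adjusted p = 0.135 over 68 scores), and 5 of its 10 markers were called lower and none higher. The permutation tests of the scores between sides treat the 2 libraries of a mouse as separate samples and do not use the pairing. In cKO mice the difference was -0.09 with overlapping ranges (exact permutation p = 0.0952), and edgeR called 3 of the 10 markers lower and 0 higher. Of all genes, 16.0% were called lower in control and 15.1% in cKO mice. The satellite glia score was 7.67 to 7.81 on the uninjured and 7.82 to 8.01 on the injured side of control mice (difference 0.18, exact permutation p = 0.00794, adjusted p = 0.135). In cKO mice it differed by 0.07 between the sides with overlapping ranges (exact permutation p = 0.302), and on the injured side cKO libraries differed from control libraries by -0.12 (exact permutation p = 0.0238, adjusted p = 0.27). Of the 6 satellite glia markers, edgeR called 3 higher in control and 2 higher in cKO mice, and 0 lower in either. The shares of all genes called higher were 13.8% and 16.2%. The macrophage score ran from 2.51 to 3.49 on the uninjured and from 2.69 to 3.77 on the injured side of control mice, and the ranges of the neutrophil and mast cell scores overlapped as well. No marker of any list was at 0. The part of these markers in the receptor values was not tested.

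Per kilobase of merged exons, uninjured control ganglia had F2rl2 at 56.1 CPM per kb, Ptger3 at 14.7, F2r at 8.23, Ptger1 at 7.01, Ptger4 at 2.74, Bdkrb2 at 2.13, F2rl3 at 0.899, Ptger2 at 0.275, F2rl1 at 0.241 and Bdkrb1 at 0.0085. The ranges of neighbours in this order overlapped only for Ptger2 and F2rl1. On the injured side Bdkrb2 moved up from place 6 to place 4 in control mice (6.55 CPM per kb, overlapping F2r at 6.67). In injured cKO ganglia it took place 3 (7.09 CPM per kb, overlapping F2r at 6.24). The deposited FPKM order differs: for the 9 receptors with introns the FPKM imply the length of the whole gene, introns included (F2rl3 has a single exon), and Ptger3, with a gene of 78997 bases and 5688 exon bases, takes place 4 by FPKM (1.06) behind Ptger1 (6.29) and F2r (1.65).

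**Figure D3:**
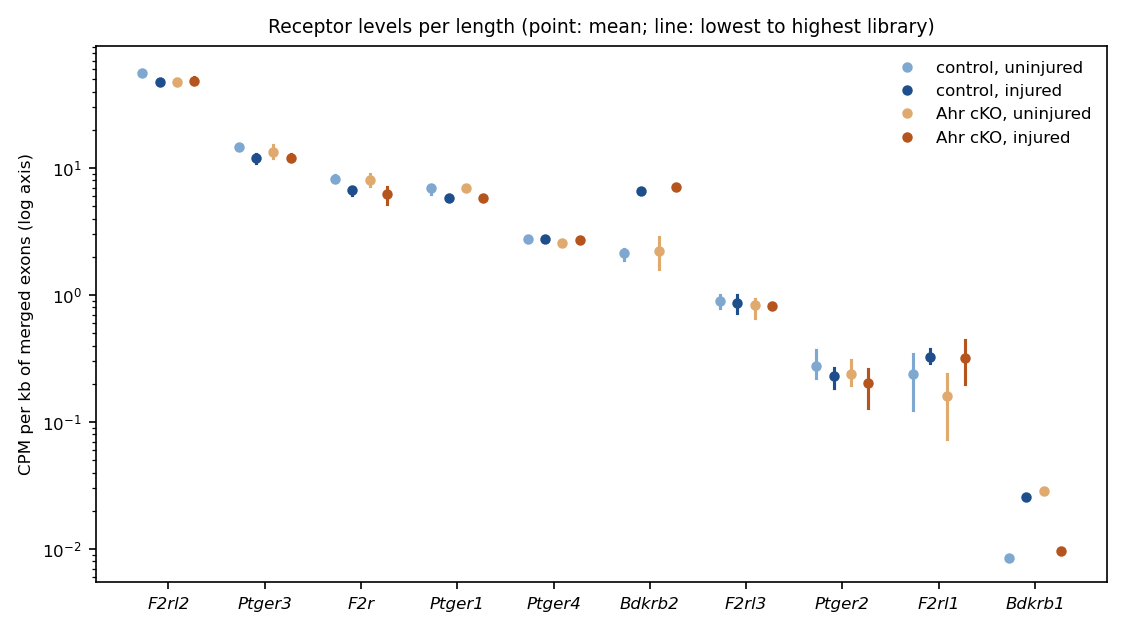
CPM per kilobase of merged exons (log axis) of the 10 receptors in the 4 groups; points are means of 5 libraries and lines run from the lowest to the highest library, left out for Bdkrb1, whose lowest library is at 0. F2rl2 is highest in every group, and Bdkrb2 moves up between the uninjured and injured groups.

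Between genotypes none of the 8 receptors tested was called. On the uninjured side 0.0735% of all genes were called (21 genes; 3332 without mouse H99 and 1041 with DESeq2, still with 0 of the 8 receptors), and 2 receptors, F2rl1 (log2 difference -0.61, SE 0.286, adjusted p = 0.274) and Ptger4 (-0.09, SE 0.0347, adjusted p = 0.209), had an unadjusted p under 0.05 in edgeR, as did 17.5% of all genes. On the injured side 0.007% of all genes were called; 2.36% had an unadjusted p under 0.05, and 0 receptors did. For the difference in injury response 0.0% of all genes were called (lowest adjusted p 0.485), 2799 genes (9.8%) had an unadjusted p under 0.05, and 0 of the 8 receptors did. DESeq2, limma on log2 FPKM and voom called 0 of the 8 in these 3 comparisons; over all genes DESeq2 called 11 in the last.

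The proteases that cut these receptors, and their inhibitors, formed the first of 6 pathway lists. In control mice 5 of 28 tested genes rose and 1 fell, and in cKO mice 4 rose and 1 fell. The shares of all genes to set beside the counts of each list are the 13.8% higher and 16.0% lower in control mice and the 16.2% and 15.1% in cKO mice given above; no list was tested against them. Procr, the receptor for protein C, rose from 3.19 ± 0.425 to 34.3 ± 1.95 CPM (log2 fold change 3.43, SE 0.186, adjusted p = 1.07e-10, edgeR) and from 5.09 to 35.6 CPM in cKO mice (2.81). Plat, tissue plasminogen activator, rose by 0.63 and 0.54 on the log2 scale. Proc, protein C itself, was low and fell from 0.285 to 0.164 CPM in cKO mice (-0.80, adjusted p = 0.0343, edgeR). That call was lost without H64, H99 or H100 (adjusted p 0.0680 to 0.121). It was also lost without the filter on low counts (0.0713) and in a fit to only the libraries compared (0.0944). F2, the gene for prothrombin, had group means of only 0.157 to 0.212 CPM and was not called.

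Of 14 tested genes of kinin formation and breakdown, 1 rose and 1 fell in each genotype. Ece1, a peptidase that degrades bradykinin among other peptides, rose by 0.11 (adjusted p = 0.0417) and 0.19 (adjusted p = 0.0014) on the log2 scale. The control call was lost without H62, H63, H95, H96 or H97 (adjusted p 0.0543 to 0.173) and with limma on log2 FPKM (0.085 and 0.089 at pseudocounts of 1 and 0.1). Cpn1, a carboxypeptidase that trims kinins, fell in control mice (7.02 to 5.44 CPM, log2 fold change -0.37, adjusted p = 0.00201). Klk1, a kallikrein, fell in cKO mice at levels under 2 CPM (-1.83, adjusted p = 0.0319), but not without H64 or H95 (adjusted p 0.0988 to 0.139). That call was also lost with mouse as a random effect (voom, adjusted p = 0.105), without the filter (0.0849), in only the libraries compared (0.118) and with limma on log2 FPKM at a pseudocount of 0.1 (0.061).

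Among 22 tested genes of prostaglandin synthesis, transport and breakdown, 2 rose and 3 fell in control mice, and 1 rose and 6 fell in cKO mice. Neither cyclooxygenase gene was called: Ptgs1 was at 2.22 and 2.74 CPM on the sides of control mice (log2 fold change 0.30, adjusted p = 0.367; without H62 it was 0.59 with an adjusted p of 0.0427), and Ptgs2 at 0.337 and 0.475 CPM (0.52, SE 0.511, adjusted p = 0.511). In cKO mice the values went the other way, with Ptgs1 at 2.80 and 2.57 CPM (-0.12, adjusted p = 0.737) and Ptgs2 at 0.554 and 0.299 CPM (-0.90, SE 0.511, adjusted p = 0.2); the differences in response had adjusted p-values of 0.666 and 0.528 in edgeR. Ptges, the microsomal prostaglandin E synthase, was at 12.7 and 13.0 CPM in control and 16.0 and 13.3 CPM in cKO mice, called only without H99 in the latter (-0.35, adjusted p = 0.0382). Hpgd, which inactivates prostaglandins, fell in cKO mice (-0.64, adjusted p = 0.00909; without H64 or H95 adjusted p 0.0554 to 0.0602, and 0.0523 in only the libraries compared), and Ptgr2, a prostaglandin reductase, fell in both genotypes (-0.19 and -0.23). Hpgds, the hematopoietic prostaglandin D synthase, rose in control mice (0.71, adjusted p = 0.0343), a call lost without H62, H63, H65 or H97 (adjusted p 0.0604 to 0.124), without the filter (0.0774) and with limma on log2 FPKM (0.0801 and 0.064 at pseudocounts of 1 and 0.1). With the replicate block it also passed in cKO mice (0.46, adjusted p = 0.0358). Ptgis, prostacyclin synthase, fell in cKO mice (-1.01, adjusted p = 0.0353) but not with the replicate block (-0.86, adjusted p = 0.0587) or without H63, H64, H95, H97 or H100 (adjusted p 0.0510 to 0.149). It also missed the threshold with voom (adjusted p = 0.0609), without the filter (0.0818), in only the libraries compared (0.106) and with limma on log2 FPKM at a pseudocount of 0.1 (0.0537). Its uninjured cKO libraries ran from 6.49 to 24.6 CPM, and the fibroblast score of that group ran from 6.70 to 7.88 beside 6.48 to 7.12 in uninjured control ganglia; the part of fibroblast content was not tested.

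Of 6 other prostanoid receptors and their partners, 3 fell and 1 rose in each genotype. The gene that rose was Ptgfrn in control mice and Ptgdr2, which is named here after its values were seen, in cKO mice. Ptgdr2 was low, at 0.239 CPM on the uninjured and 0.345 CPM on the injured side of cKO mice. Ptgdr, a prostaglandin D2 receptor, fell from 51.4 ± 3.79 to 30.9 ± 2.61 CPM in control mice (log2 fold change -0.74, SE 0.0697, adjusted p = 6.51e-08, edgeR) and from 43.7 to 32.9 CPM in cKO mice (-0.41). Ptgfr, the prostaglandin F2α receptor, fell by 0.62 and 0.63 on the log2 scale, and Ptgir, the prostacyclin receptor, by 0.32 and 0.35. Ptgfrn, a regulator of the F2α receptor, rose in control mice (0.20, adjusted p = 0.0203) and was at -0.01 in cKO mice (adjusted p = 0.905), responses not shown to differ (-0.22, adjusted p = 0.498). The control call was lost without H62 or H63 (adjusted p 0.0592 to 0.0673) and with limma on log2 FPKM (0.0838 and 0.0794 at pseudocounts of 1 and 0.1).

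Of 32 genes through which these receptors signal, 5 rose and 15 fell in control mice, and 5 rose and 8 fell in cKO mice. Their median log2 fold changes were -0.13 and -0.08, beside 0.00 and -0.03 over all genes. Plcb3, the phospholipase C isoform prominent in sensory neurons, fell from 661.9 to 480.8 CPM in control mice (-0.46, adjusted p = 3.07e-06) and from 597.9 to 489.7 CPM in cKO mice (-0.29, adjusted p = 0.000626). Prkca, a protein kinase C, fell in control mice (-0.37, adjusted p = 0.00031) and did not pass in cKO mice (-0.14, adjusted p = 0.139). Arrb1, β-arrestin 1, which turns off and internalizes receptors, rose from 473.0 to 639.9 CPM (0.44) and from 440.7 to 638.5 CPM (0.53). Akap5, a kinase anchoring protein, fell in control mice (-0.49, adjusted p = 0.0341) but not with the replicate block (-0.48, adjusted p = 0.0536) or without H65, H96 or H97 (adjusted p 0.0744 to 0.181), nor in only the libraries compared (0.0682).

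Among 19 tested receptors for other inflammatory mediators, 6 rose and 3 fell in each genotype. Il1r1, the interleukin-1 receptor, rose from 8.59 to 15.5 CPM (0.86) and from 9.14 to 17.4 CPM (0.93), and Tnfrsf1b, a tumour necrosis factor receptor, by 1.02 and 1.05. C5ar1, the complement C5a receptor, rose by 1.10 (adjusted p = 0.000897) and 0.67 (adjusted p = 0.0264), the latter not without H99 or H100 (adjusted p 0.0901 to 0.104), without the filter (0.0602) or in only the libraries compared (0.0723). Cysltr1, a leukotriene receptor, was just past the threshold in control mice (0.75, adjusted p = 0.0495) and not without H61, H62, H63, H95, H96 or H97 (adjusted p 0.0572 to 0.175). It also missed it with voom (adjusted p = 0.0773), without the filter (0.114), with a covariate for the mouse number range (0.057) and with limma on log2 FPKM (0.113 and 0.106 at pseudocounts of 1 and 0.1). Over the 6 lists 0 of 121 tested genes were called by edgeR between genotypes on either side or in the injury response. At an unadjusted p under 0.05 there were 39 of the 121 on the uninjured side, 2 on the injured side and 17 for the response, beside 17.5%, 2.36% and 9.8% of all genes. On the uninjured side and for the response the share of the lists is larger than that of all genes, which was not tested. DESeq2 called 16, 0 and 0 of the 121, and on the uninjured side it called 1041 of all 28564 genes, a smaller share.

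**Figure D4:**
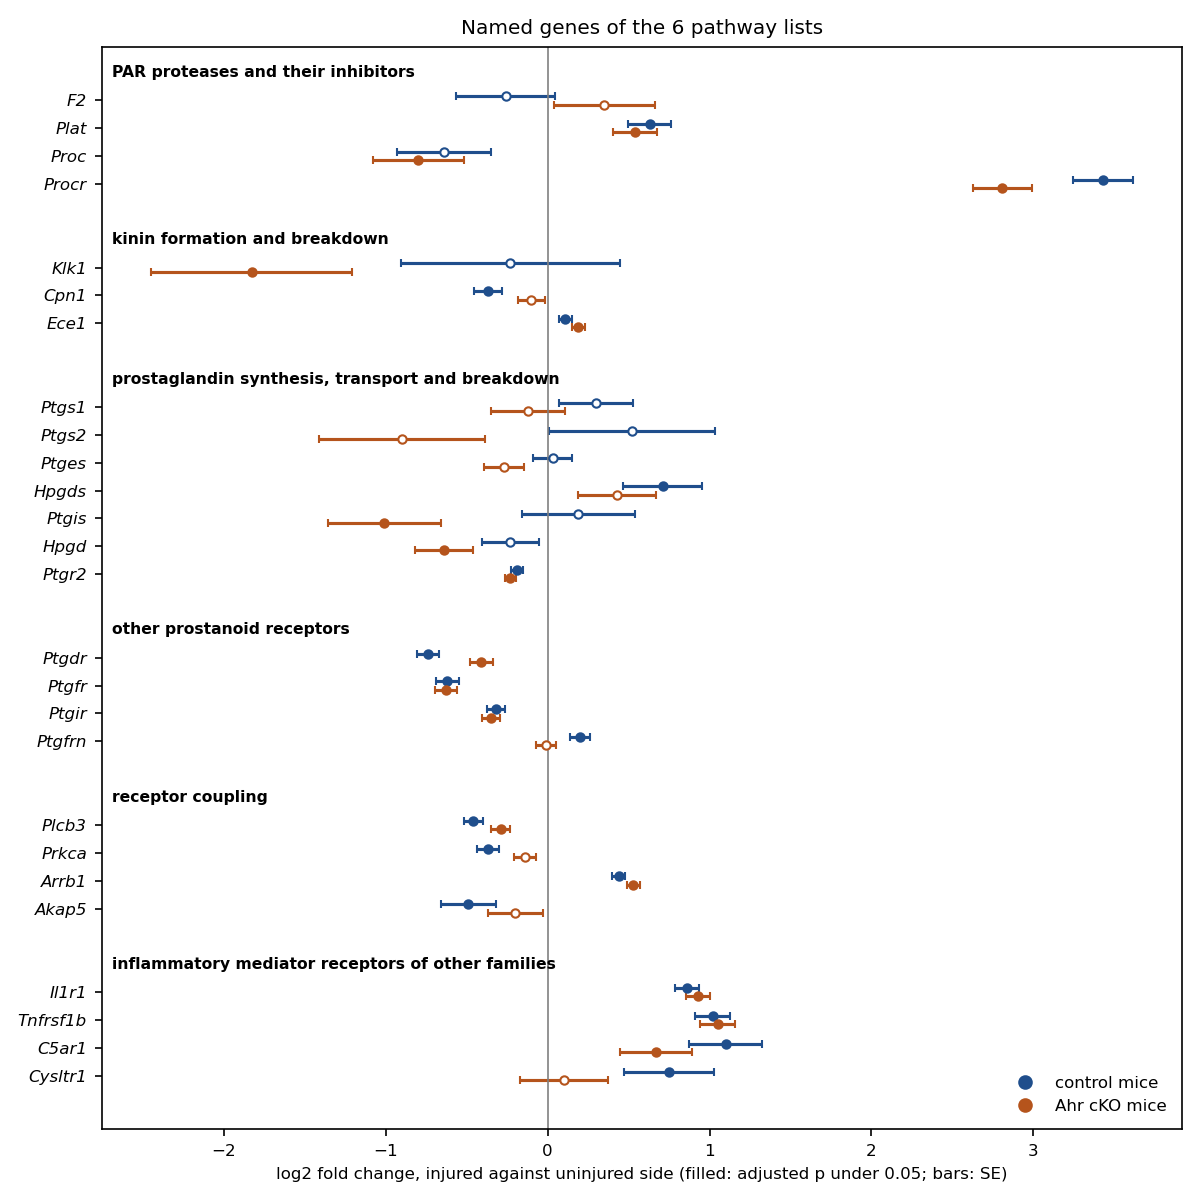
Log2 fold change of the injured against the uninjured side (horizontal axis, SE bars) for the named genes of the 6 pathway lists in control (blue) and cKO (orange) mice; filled points passed the test. Procr lies farthest to the right, and Ptgdr, Ptgfr and Ptgir lie left of 0 in both genotypes.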

How the data were processed

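Whole L4 to L6 ganglia gave 1 library per mouse and side, made per the labels' protocols with a stranded Illumina mRNA kit and sequenced as 2 × 150 bp pairs. HISAT2, Picard and the builds mm10 and mm39 appear in the submitters' processing notes with no role; the counter, annotation and strand setting are not given in the sources used here. The deposited counts per gene are whole numbers without normalization, and the deposited FPKM use 1 length per gene, within 5% of the whole gene span for 93.0% of 18805 genes. Symbols were matched for 51487 of 78258 identifiers, which hold 98.1% of all counts; 28564 genes passed the filter (edgeR filterByExpr, minimum count 10).

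Members, lists and tests were chosen with earlier results of these data known. CPM were computed from counts with TMM factors. edgeR 4.0.16 fitted 1 mean per group to all 20 libraries (quasi-likelihood, robust), with Benjamini-Hochberg adjustment over all genes tested. DESeq2 1.42.0, limma 3.58.1 on log2 FPKM, voom with mouse as random effect, other filters and scalings, the mouse as a replicate block and leaving out each mouse were alternatives; scripts were tested on simulated data. The 2 sides of a mouse come from 1 animal and are paired; the deviations of the 2 libraries from their group means correlated with a median of 0.186 (-0.0546 to 0.361, above 0.1 in 7 of 10 mice). Libraries of 1 group differed by more than sampling noise in all 40 pairs. The named genes are the 10 receptors; up to 4 called genes per pathway list by the size of their control injury fold change; F2, Ptgs1, Ptgs2, Ptges and Hpgd; and the 5 genes most correlated with F2rl2 and Bdkrb2, predicted genes left out. A gene that this rule chose is counted in its list and not reported here. Exon lengths and overlaps came from GENCODE M21 (GRCm38), whose build may not be that of the counts.

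Apart from sensory neurons, pruriceptive neurons and satellite glia, no marker list (peptidergic, non-peptidergic and cold-sensing neurons, Schwann cells, macrophages, neutrophils, mast cells, lymphocytes, fibroblasts, endothelium, pericytes and smooth muscle, erythroid cells, platelets and skeletal muscle) had an adjusted p below 0.216 in the 68 exact permutation tests of 4 comparisons. Even scores at the smallest possible exact p of 0.00794 had an adjusted p of 0.135, so these tests cannot show that a cell type was unchanged. Between the sides, edgeR called the 1 cold-sensing marker lower in both genotypes (log2 fold changes -0.37 and -0.33). Of the 3 non-peptidergic markers it called 1 lower in control and 2 higher in cKO mice.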

Additional observations from a re-analysis of the deposited data

Results flagged for a closer look

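The library of mouse H62 stood apart from the other control contralateral libraries in F2rl2 (148.3 CPM, the others 136.8 to 140.0 CPM): its gap to the nearest library was 0.72 of the range of the group. Of 36 sets of 5 libraries examined this way (9 receptors in 4 groups), 1 was found, and chance alone gives about 1 in 20, or 1.8. Without H62 the log2 difference between genotypes on the uninjured side was -0.21.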

How the results depend on the processing

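Every injury call of a receptor (F2r, Ptger1 and Bdkrb2 in both genotypes, Ptger3 in control and F2rl1 in cKO mice) kept its direction and its side of the threshold in all alternatives in which the gene was tested; F2rl1 was not tested at a mean CPM of at least 1. On the log2(FPKM + 1) scale the Bdkrb2 fold changes were 0.50 and 0.54. The cKO fold change of Ptger3 passed the threshold in 8 of 20 alternatives (adjusted p 0.0209 to 0.211 over all 20). The paired fit with mouse as a replicate block gave F2rl3 a cKO fold change of 0.00, and among the receptors it changed no call other than that of Ptger3 in cKO mice; genotype differences within a side cannot be fitted with it. For control injury (-0.26 to -0.22) and between uninjured genotypes (-0.25 to -0.20) the log2 values for F2rl2 stayed within 1 SE of those reported. Its small values, which were not tested either, changed sign: -0.03 to 0.04 for cKO injury and -0.01 to 0.04 between injured genotypes.

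Sign changes were limited to values that had not passed a test, between -0.04 and 0.10 except for Klk1 in control mice (-0.23). F2rl3 in cKO mice was 0.01 without a filter and 0.00 in only the libraries compared; Ptger4 in control mice was -0.00 and -0.01 on log2 FPKM with pseudocounts of 1 and 0.1; Ptgfrn in cKO mice was 0.00 without a filter. Leaving out each mouse in turn gave -0.06 to 0.01 for F2r and -0.06 to 0.15 for Bdkrb2 between uninjured genotypes, -0.04 to 0.18 for the difference in the Bdkrb2 response, -0.11 to 0.05 and -0.07 to 0.06 for F2rl3 in control and cKO mice, -0.01 to 0.03 for Ptger4 and -0.49 to 0.06 for Klk1 in control mice, and -0.05 to 0.05 for Ptgfrn and -0.02 to 0.25 for Cysltr1 in cKO mice.

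Of all genes, 21 were called between uninjured genotypes, 7 higher and 14 lower in cKO mice. DESeq2 called 1041 (667 higher and 374 lower), 50 came without a filter, 45 among genes averaging 1 CPM or more, and limma on log2 FPKM gave 6 (3 higher and 3 lower) and 7 at pseudocounts of 1 and 0.1; a fit to only the libraries compared called 2. Leaving out 1 mouse gave 5 (without H95) to 3332 (without H99). The difference in response had 0 calls, 11 with DESeq2 and 0 to 43 (without H99) with 1 mouse left out. The cause was not tested. No total of receptors called, both directions together, moved by over 1.5 times; of the 2 that rose in cKO mice, 1 could be tested at a mean CPM of at least 1. Depth limits Bdkrb1, with at most 11 counts, and F2rl1, with 18 to 143 counts per library.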
